A study of Mus musculus with 10 samples.

Results

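The genes described here mark the cells that line vessels: 33 endothelial and lymphatic genes, each found by its symbol in the deposited table of 26863 genes, where every symbol matched a single row. They were read in interscapular brown adipose tissue of mice, collected 1 h after clozapine-N-oxide (CNO), which activates designer receptors, as polyA RNA in stranded libraries. There were 5 libraries of the PnocCre genotype and 5 of Wildtype, all with CNO. By the series' description, neurons that express PNOC in the medial preoptic area, which regulates body temperature, were activated. A Cre line recombines only in cells that express the Cre. Which receptor was used, and whether Wildtype animals had it, is not given in the sources used here. The labels give no age, sex, litter or batch. No label states outright that each library is a separate animal, so the p-values rest on the spread among these libraries and nothing wider.

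Blood vessels of brown fat bring in oxygen and fatty acids and carry away the heat that brown adipocytes make, and a capillary runs beside nearly every adipocyte. Their endothelial cells are held together by cadherin and claudin junctions, grow under vascular endothelial growth factor (VEGF), angiopoietin and Notch signals, and keep their identity through transcription factors of the ETS and SOX families. Lymphatic vessels are lined by endothelial cells of their own, which carry the receptor Flt4 and depend on the transcription factor Prox1.

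Blood endothelial markers were well measured in every library. Per kilobase of the deposited gene length and averaged over the 10 libraries, Aqp1 had the highest level of the 33 (3843 normalised counts per kb), followed by Cldn5 (1686), Cdh5 (1206), Eng (873) and Egfl7 (692), and the median over the members was 182. The lymphatic markers stood at the other end, with Lyve1 at 15.1 and Prox1 at 0.623 normalised counts per kb, so the lymphatic values rest on few reads. In whole tissue, fewer cells of a type and less RNA per cell cannot be told apart.

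Between the genotypes, most of the vessel genes had slightly higher means in PnocCre, but none passed the test. Of the 32 members averaging 10 or more normalised counts, 30 had a higher mean log2 level in PnocCre (against 49.3% of the 15301 genes tested) and 2, Sox18 and Vwf, a lower one. The median log2 fold change was 0.27, where the median of all genes was -0.0062. With limma 0 members had an adjusted p under 0.05 (0% of all genes were called), and the smallest adjusted p was 0.165, for Plvap. edgeR's quasi-likelihood test called 0 members too (0% of all genes), and DESeq2 called 0 where it called 3.44% of all genes. At an unadjusted p under 0.05 limma had 5 members, all higher (15.6% of those tested, against 8.94% of all genes higher and 8.07% lower), edgeR 7, all higher (11.1% of all genes higher and 5.91% lower), and DESeq2 10, all higher (7.53% and 4.76%). DESeq2's 10 are 9 of these 32 and Prox1, which was below the filter of limma. The DESeq2 shares are over wider sets: 26599 genes with a p and 16733 with an adjusted p, where limma tested 15301. They are therefore not on a like set with limma's shares. With library quality weights limma had 8 (9.69% and 8.32%) and called 0 (0.346% of all genes called). The groups overlapped in every member: 0 of 32 had all PnocCre libraries on one side of all Wildtype libraries, against 4.4% of all genes (1.79% higher and 2.61% lower).

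**Figure D1:**
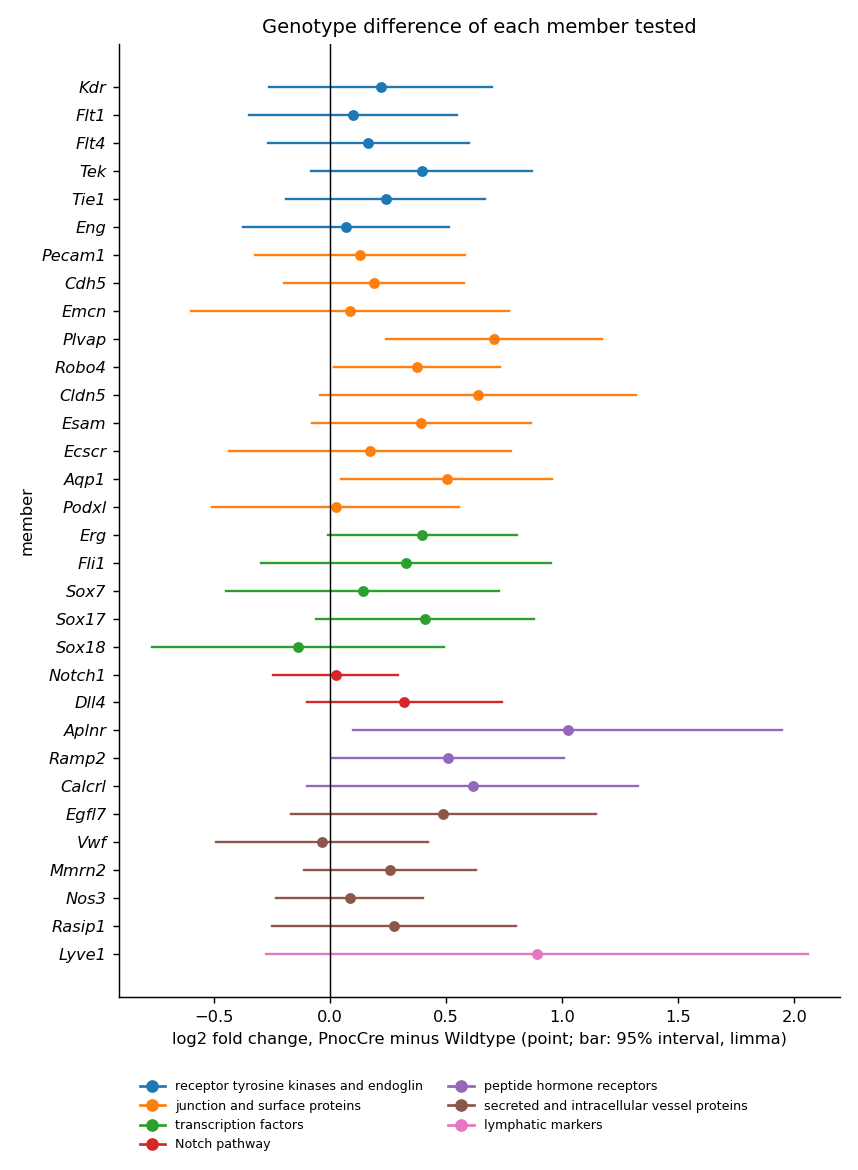
Log2 fold change of each of the 32 members tested, PnocCre minus Wildtype, on the log2(normalised count + 1) scale (x axis; points, with 95% intervals from limma as bars), by member (y axis). Points to the right of 0 are 30 of 32, from 0.02 for Notch1 to 1.02 for Aplnr, and most intervals include 0.

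What the members shared across samples was a rank order of libraries that cut across genotype. The median member stood 0.56 and 0.45 above its own mean over the 10 libraries (log2) in PnocCre replicates 1 and 2, and 0.44 above it in Wildtype replicate 1. In the other 7 libraries it ranged from -0.31 to -0.01, while the median of all genes ran from -0.0025 to 0.016 over the 10 libraries. PnocCre replicates 1 and 2 and Wildtype replicate 1 were the 3 highest libraries for 22 of the 32 members (68.8%), against 8.78% of all genes tested, and 1 of them was the highest for 31 members (96.9% against 44.1%). Wildtype replicate 1 was the highest Wildtype library for 29 members, where it was so for 29.4% of all genes. These libraries were singled out after the values were seen, so the shares are a description.

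**Figure D2:**
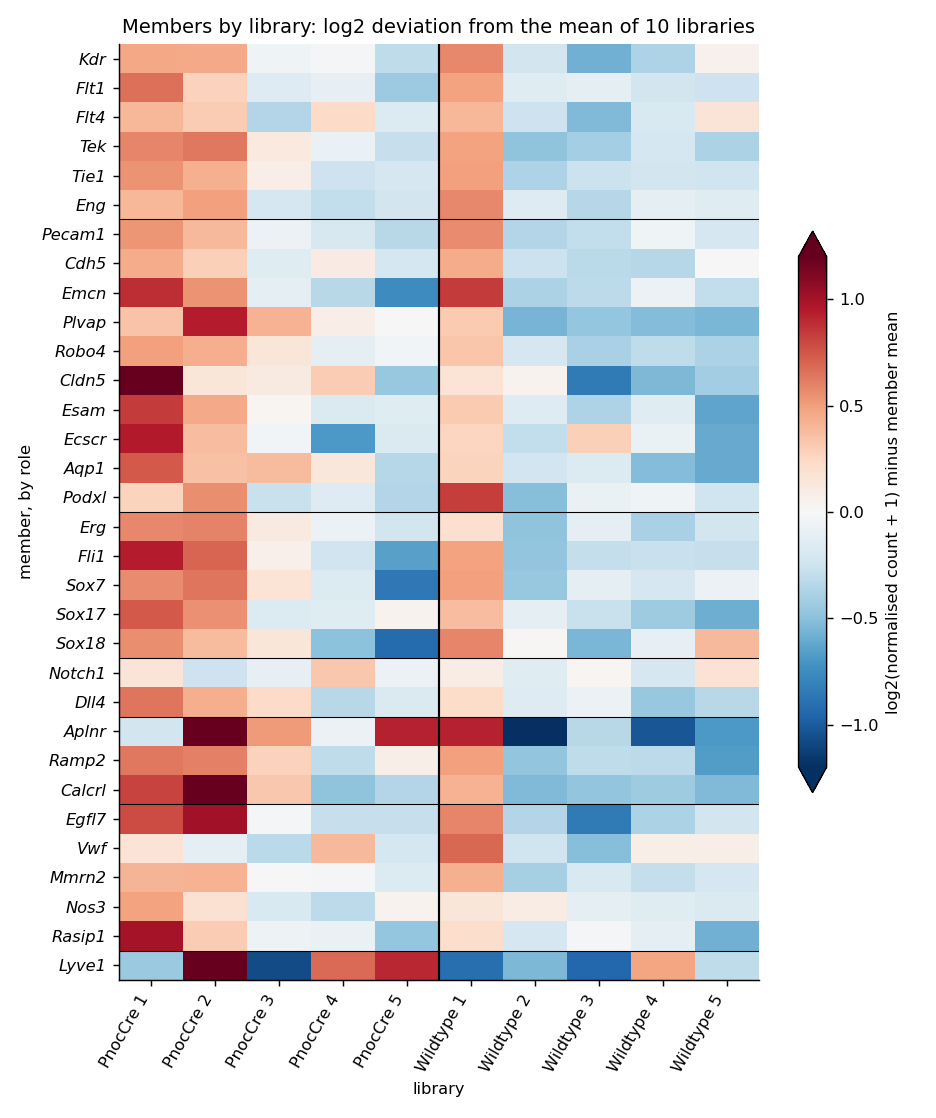
Each of the 32 members tested (y axis, grouped by role) in each library (x axis), coloured by log2(normalised count + 1) minus the member's mean over the 10 libraries. PnocCre replicates 1 and 2 and Wildtype replicate 1 form 3 red columns through most roles, while Notch1, Vwf, Aplnr and Lyve1 break the pattern.

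The members came from 13 chromosomes, with 7 of the 33 on chromosome 2. Egfl7 and Notch1 are neighbours there, 63350 bases apart in the files' GRCm39 coordinates, and their library patterns differed: Egfl7 was highest in PnocCre replicates 1 and 2 and Wildtype replicate 1, and Notch1 in PnocCre replicate 4. Promoters from RefSeq (GRCm38.p6, from 250 bases before to 50 after each start) were matched for 17 of the 33 members. ETS factors such as Erg and Fli1, both members, bind a GGAA core, and the letters AGGAAG or CGGAAG, searched on both strands, were in a promoter of 10 of the 17 (58.8%), where 49.8% of 27025 genes had them. The letters ACAATG or ACAAAG, of the SOX kind and also on both strands, were in 6 of the 17 (35.3%), against 31.7% of all genes. Below are 3 promoters: Tie1 and Robo4, whose levels followed the shared order of libraries, and Notch1, whose levels did not. Among members that followed it, some had the ETS letters in a promoter, such as Calcrl and Flt1, and Kdr, Tek and Flt4 did not. Whether the letters go with the order of libraries was not tested. Capitals mark the ETS letters or their reverse complement, a match that is a description of these letters and not a binding site.
Tie1 (chr4:118489800-118490099, GRCm38.p6, minus strand): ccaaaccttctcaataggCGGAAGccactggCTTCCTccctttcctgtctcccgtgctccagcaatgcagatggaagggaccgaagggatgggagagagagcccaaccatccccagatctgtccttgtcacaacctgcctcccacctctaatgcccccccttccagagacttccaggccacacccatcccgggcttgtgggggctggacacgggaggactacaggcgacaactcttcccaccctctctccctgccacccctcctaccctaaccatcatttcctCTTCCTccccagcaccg
Robo4 (chr9:37401722-37402021, GRCm38.p6, plus strand): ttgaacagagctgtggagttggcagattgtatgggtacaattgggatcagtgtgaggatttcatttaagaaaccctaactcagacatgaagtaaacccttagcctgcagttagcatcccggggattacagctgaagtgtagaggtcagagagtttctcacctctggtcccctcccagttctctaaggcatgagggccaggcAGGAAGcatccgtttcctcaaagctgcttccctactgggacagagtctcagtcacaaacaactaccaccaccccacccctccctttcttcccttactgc
Notch1 (chr2:26503773-26504072, GRCm38.p6, minus strand): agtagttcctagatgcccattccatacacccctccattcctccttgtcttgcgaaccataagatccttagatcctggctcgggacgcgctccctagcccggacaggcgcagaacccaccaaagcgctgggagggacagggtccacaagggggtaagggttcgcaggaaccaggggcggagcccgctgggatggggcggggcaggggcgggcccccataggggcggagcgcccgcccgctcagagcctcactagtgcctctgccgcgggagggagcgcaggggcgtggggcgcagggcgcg

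The receptor tyrosine kinases and endoglin, through which VEGF, angiopoietin and TGF-beta family ligands act on endothelium, were higher in PnocCre for 6 of 6, with a median fold change of 0.19 (log2) and 0 at an unadjusted p under 0.05 with limma. Kdr, the main VEGF receptor of endothelium (chromosome 5, 76093487 to 76139118), had 6002, 5987, 4202, 4293 and 3522 normalised counts in PnocCre replicates 1 to 5 and 6512, 3730.4, 2913, 3362 and 4509 in Wildtype replicates 1 to 5. The highest value of all was thus a Wildtype one, and the groups overlapped over most of their range. The means were 4801 ± 1129 and 4205 ± 1416 (SD, n = 5 each), a log2 fold change of 0.22 (SE 0.22, 95% interval -0.26 to 0.70, limma adjusted p 0.611). Flt1, a VEGF receptor that also acts as a decoy, had 5359, 4098, 3041, 3162 and 2508 in PnocCre and 4724, 3058, 3132, 2908 and 2848 in Wildtype (0.10, SE 0.21, limma adjusted p 0.812). PnocCre replicate 1 and Wildtype replicate 1 stood above the rest of their groups, and the lowest library was a PnocCre one.

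Tek, the receptor of the angiopoietins (chromosome 4, 94627526 to 94763213), had 1656, 1711, 1196, 1044 and 907 normalised counts in PnocCre and 1542, 788, 831, 952 and 846 in Wildtype. All Wildtype libraries but replicate 1 were below 4 of the 5 PnocCre ones, and replicate 1 lay among the highest PnocCre values. Its log2 fold change of 0.40 (SE 0.22, 95% interval -0.08 to 0.87) had a limma adjusted p of 0.368. Tie1, an orphan receptor that works with Tek, had 2512 ± 626 and 2129 ± 587, and Eng, a co-receptor of the TGF-beta family, 3621 ± 977 and 3444 ± 957. Flt4, the receptor of Vegfc on lymphatic and some blood endothelium, had 364, 339.6, 216, 323 and 246 in PnocCre and 363, 231, 191, 242 and 307 in Wildtype (0.17, SE 0.20, limma adjusted p 0.669). Its groups covered almost the same range. Its 3 highest libraries were those of most members, with PnocCre replicate 4 and Wildtype replicate 5 not far below.

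**Figure D3:**
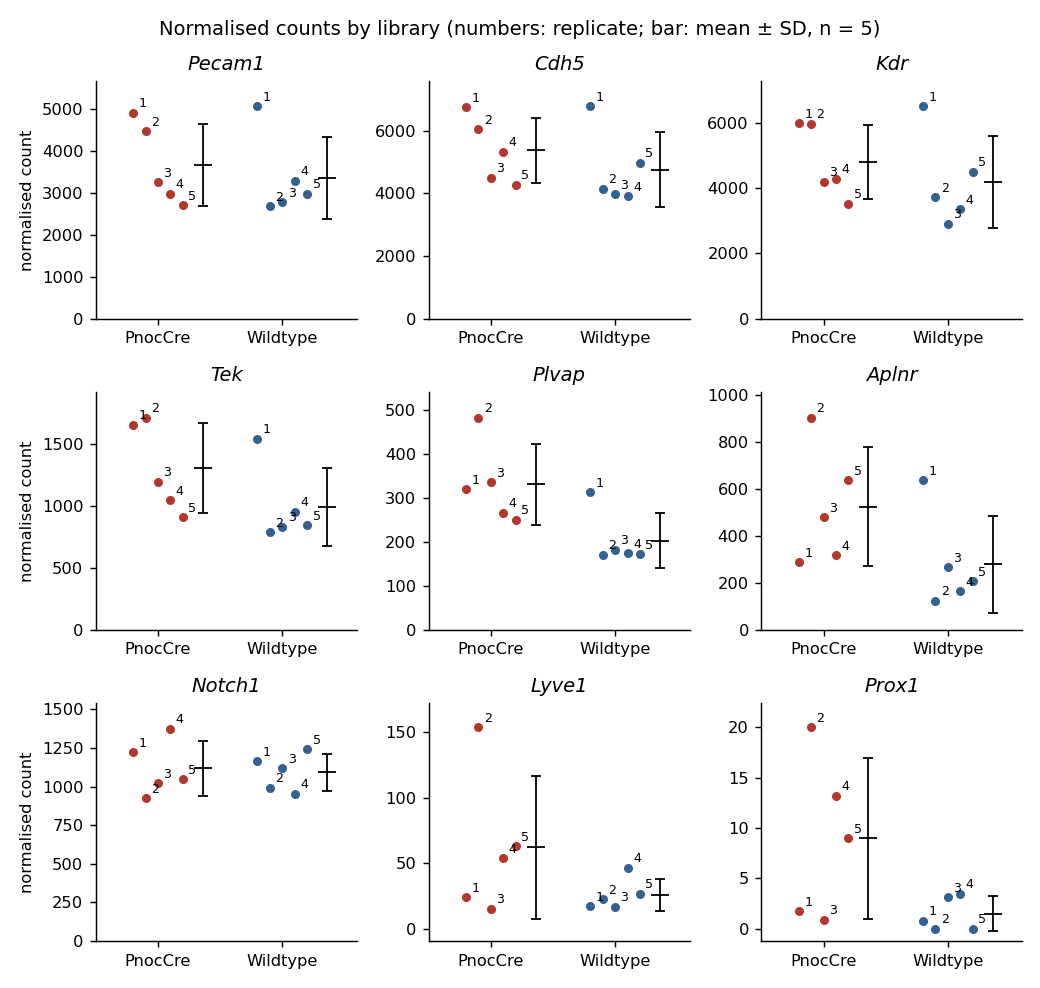
Normalised counts (y axes, linear) of 9 members in each library, by genotype (x axes); numbers are replicates, and bars are the mean ± SD (n = 5 each). In Pecam1, Cdh5, Kdr and Tek, PnocCre replicates 1 and 2 and Wildtype replicate 1 lie above the rest, Notch1 spreads little, and Prox1 stays at or below 19.97.

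Junction and surface proteins stood above Wildtype in PnocCre for 10 of 10 (median log2 fold change 0.28). With limma 3 of them had an unadjusted p under 0.05, where 8.94% of all genes did and were higher and 8.07% lower. Pecam1, an adhesion molecule of endothelial contacts (chromosome 11, 106545043 to 106641454), had 4910.0, 4472, 3256, 2979.6 and 2707 normalised counts in PnocCre and 5057, 2680.2, 2782, 3291 and 2974 in Wildtype. The highest and the lowest value were both Wildtype. Its log2 fold change was 0.13 (SE 0.21, 95% interval -0.32 to 0.58, limma adjusted p 0.756). Cdh5, the cadherin of endothelial junctions (chromosome 8, 104828257 to 104871143), had 6749, 6057, 4504, 5325 and 4282 in PnocCre and 6773, 4154, 3970.3, 3914 and 4981 in Wildtype (0.19, SE 0.18, limma adjusted p 0.582). Here 3 Wildtype libraries lay below all PnocCre ones, while Wildtype replicate 1 was the highest of the 10.

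Plvap, which forms the diaphragms of fenestrated and caveolar endothelium (chromosome 8, 71950409 to 71964396), had the smallest p of the members. Its normalised counts were 320.2, 483, 335, 266 and 250.3 in PnocCre and 314, 171, 182, 175 and 172 in Wildtype. Wildtype replicates 2 to 5 were close together and below every PnocCre library, and Wildtype replicate 1 lay among the PnocCre values. The means were 331 ± 92.2 and 203 ± 62.2 (SD, n = 5 each), a log2 fold change of 0.71 (SE 0.21, unadjusted 95% interval 0.24 to 1.17). It did not pass with limma (adjusted p 0.165), edgeR (0.180) or DESeq2 (0.0668), and the adjusted p in the authors' deposited table was 0.0668 too, the smallest there of any member.

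Aqp1, a water channel of capillaries and red cells (chromosome 6, 55313417 to 55325540), had 16129, 12320.5, 12583, 10647 and 7639 normalised counts in PnocCre and 11643, 8235, 8644, 6740.0 and 6381 in Wildtype. PnocCre replicates 1 to 3 were above all Wildtype libraries, and PnocCre replicates 4 and 5 lay within the Wildtype range (0.50, SE 0.21, 95% interval 0.05 to 0.96, limma adjusted p 0.255). The summed red cell and platelet markers ranged from 10008 to 27591 in PnocCre and from 8922 to 27297 in Wildtype, and their part in the Aqp1 values was not tested. Robo4, a roundabout receptor that steadies vessels (chromosome 9, 37313193 to 37326411), had 1512, 1459, 1189, 996 and 1054 in PnocCre and 1359, 935, 821, 871 and 825 in Wildtype (0.38, SE 0.16, 95% interval 0.02 to 0.73, limma adjusted p 0.276). Its Wildtype replicates 2 to 5 were below every PnocCre library, as for Plvap. Cldn5, a tight junction claudin, reached 6041 in PnocCre replicate 1, while replicates 2 to 5 lay between 1569 and 2664 and Wildtype between 1197 and 2404. Esam and Ecscr, 2 further surface proteins of endothelial contacts and migration, had log2 fold changes of 0.39 and 0.17, and the sialomucins Emcn and Podxl 0.09 and 0.02. The smallest limma adjusted p of these 5 was 0.317, for Cldn5.

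Of the transcription factors, 4 of 5 had higher means in PnocCre (median log2 fold change 0.33). Sox17, a factor of arterial identity, had 755, 662, 406, 410.3 and 468 normalised counts in PnocCre and 585, 422, 376, 338 and 302 in Wildtype (0.41, SE 0.22, 95% interval -0.06 to 0.88, limma adjusted p 0.348). Its 2 highest libraries were PnocCre ones and its 3 lowest Wildtype ones. Sox18, which acts in blood and lymphatic vessel development, had 1105, 981, 830.5, 533 and 395 in PnocCre and 1129.6, 759, 516, 704 and 988 in Wildtype. PnocCre replicate 5 was the lowest and Wildtype replicate 1 the highest of the 10 (-0.14, SE 0.29, limma adjusted p 0.816). The ETS factors Erg and Fli1, which keep endothelial identity, had log2 fold changes of 0.40 (limma adjusted p 0.299) and 0.33 (0.557), and Sox7 had 0.14 (0.797).

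The Notch pair split in how much it varied. Notch1, the receptor through which neighbouring endothelial cells settle tip and stalk fates (chromosome 2, 26347915 to 26406675), had 1222, 924, 1023, 1375 and 1049 normalised counts in PnocCre and 1166, 994, 1118, 953 and 1241 in Wildtype. The groups overlapped throughout, with means of 1119 ± 179 and 1094 ± 120 (SD, n = 5 each; log2 fold change 0.02, SE 0.12, 95% interval -0.24 to 0.29, limma adjusted p 0.930). Its coefficient of variation in PnocCre was 16.0%, the lowest of the members, whose median was 27.9% there and 27.8% in Wildtype. Dll4, a Notch ligand of arterial and tip cells, had 909, 786, 683, 462 and 515 in PnocCre and 676, 522, 555, 423 and 461 in Wildtype (0.32, SE 0.19, limma adjusted p 0.397). PnocCre replicates 1 to 3 were above all Wildtype libraries and replicates 4 and 5 within their range.

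Receptors of the vasoactive peptides apelin and adrenomedullin were higher in PnocCre for 3 of 3 genes (median log2 fold change 0.62). With limma 2 of them had an unadjusted p under 0.05, where 8.94% of all genes did and were higher and 8.07% lower. A role of 3 genes is too small for its share to be read against these. Aplnr, the apelin receptor (chromosome 2, 84966569 to 84970267), had the largest fold change of the members tested. It had 287, 904, 479, 319 and 637 normalised counts in PnocCre and 638, 124, 266, 164 and 208 in Wildtype. PnocCre replicate 2 and Wildtype replicate 2 were the extremes, PnocCre replicate 1 was the lowest of its group, and Wildtype replicate 1 exceeded 4 of the 5 PnocCre libraries. The log2 fold change was 1.02 (SE 0.42, 95% interval 0.10 to 1.95, limma adjusted p 0.254). Ramp2 and Calcrl, which together form an adrenomedullin receptor, had 703 ± 181 and 210.1 ± 107 in PnocCre and 500.0 ± 176 and 128 ± 42.9 in Wildtype (SD, n = 5 each), with limma adjusted p-values of 0.287 and 0.351.

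Secreted and intracellular vessel proteins were higher in PnocCre for 4 of 5 genes (median log2 fold change 0.26), with 0 at an unadjusted p under 0.05. Vwf, the clotting factor of larger vessels and veins, had 587, 485, 418, 685 and 452 normalised counts in PnocCre and 846, 444, 367, 549.8 and 551 in Wildtype (-0.04, SE 0.21, 95% interval -0.49 to 0.42, limma adjusted p 0.938). Wildtype held both its highest and its lowest library. Nos3, the endothelial nitric oxide synthase, had 1702, 1380.0, 1072, 980.0 and 1252 in PnocCre and 1342, 1295, 1124, 1098 and 1076 in Wildtype. The Wildtype values lay inside the PnocCre range, and the log2 fold change was 0.08 (SE 0.14, 95% interval -0.23 to 0.40, limma adjusted p 0.775). Egfl7, a secreted protein of the vessel matrix, had a log2 fold change of 0.49, Mmrn2, of the endothelial matrix, 0.26, and Rasip1, needed for vessel lumen formation, 0.28, with limma adjusted p-values of 0.411 or more.

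The lymphatic markers Lyve1 and Prox1, both at low counts, did not follow the order of libraries that most members shared. By its 3 highest libraries Flt4 did follow it, and blood endothelial members such as Notch1, Vwf and Aplnr did not. Sox18 missed it narrowly: Wildtype replicate 1 and PnocCre replicate 1 were its highest, and PnocCre replicate 2 (981) was just below Wildtype replicate 5 (988). Lyve1, a hyaluronan receptor of lymphatic endothelium and some macrophages (chromosome 7, 110449814 to 110462446), had 24.2, 153, 15.3, 53.8 and 63.1 normalised counts in PnocCre and 17.3, 22.6, 16.9, 46.6 and 26.7 in Wildtype. PnocCre replicate 2 was far above the rest, replicate 3 was the lowest library of all, and Wildtype replicate 1 was among the lowest. The log2 fold change was 0.89 (SE 0.54, 95% interval -0.28 to 2.06, limma adjusted p 0.398). Prox1, the factor that sets lymphatic identity and is also expressed in muscle (chromosome 1, 189850232 to 189902911), was too low for the limma test: it had 1.73, 19.97, 0.902, 13.2 and 9.01 in PnocCre and 0.823, 0, 3.16, 3.49 and 0 in Wildtype. PnocCre replicates 2, 4 and 5 were above every Wildtype library and PnocCre replicates 1 and 3 were not, and DESeq2 gave a log2 fold change of 2.60 (adjusted p 0.143).

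Markers of other cells that can hold these transcripts also differed between libraries. PnocCre replicate 2 stood out in summed lymphocyte markers, at 4938, while PnocCre replicates 1 and 3 to 5 had 85.1 to 285 and Wildtype 96.0 to 149. Its Ccl21a, a lymphatic and lymph node chemokine with near-identical copies, was at 789.9, against 35.4 to 109 elsewhere. The summed skeletal muscle markers were 9417, 26567, 52102, 110254 and 202188 in PnocCre and 2730.2, 2678, 27457, 25638 and 2223 in Wildtype. In Wildtype the 2 libraries with the most of these markers also had the most Prox1. In PnocCre the orders matched in part: replicate 4 was second highest in both. Replicate 2, highest in Prox1, was the second lowest in muscle markers. Replicate 5, highest in muscle markers, was below replicates 2 and 4 in Prox1. The Prox1 values in these orders are at most 19.97 normalised counts. The summed macrophage markers ranged from 1906 to 2855 in PnocCre and 1587 to 2023 in Wildtype. PnocCre replicate 2 had both the highest sum and the most Lyve1, while replicate 4, with the lowest PnocCre sum, had more Lyve1 than replicate 1. The part of these cells in Lyve1 and Prox1 was not tested.

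Of 64 genes of the same vessels outside the 33, 63 were tested, 55 higher and 8 lower, with a median log2 fold change of 0.29; 11 had an unadjusted p under 0.05, all higher (17.5%, against 8.94% of all genes), and 0 were called by limma or edgeR. DESeq2 called 3 of the 64, all higher in PnocCre, a share not far above the 3.44% that it called of all genes. Angpt2, the angiopoietin released by activated endothelium, had 53.7, 59.0, 61.3, 51.8 and 42.1 normalised counts in PnocCre and 29.6, 25.8, 24.3, 25.6 and 40.7 in Wildtype (0.87, SE 0.21, limma adjusted p 0.128, DESeq2 adjusted p 0.0186). Adm, the adrenomedullin precursor, had 51.1, 32.7, 56.8, 32.5 and 40.0 in PnocCre and 15.6, 23.7, 30.6, 8.15 and 20.9 in Wildtype (1.15, SE 0.34, limma adjusted p 0.162, DESeq2 adjusted p 0.0439). Maf, a factor of lymphatic endothelium that macrophages also use, had 169, 245, 161, 140.1 and 362 in PnocCre and 96.3, 76.4, 94.9, 121 and 121 in Wildtype (1.00, SE 0.25, limma adjusted p 0.130, DESeq2 adjusted p 0.00784). In these 3 genes every PnocCre library was above every Wildtype library, as in 1.79% of all genes tested. Neither PnocCre replicate 1 nor Wildtype replicate 1 was the highest library of its group in Angpt2 or Adm, and in Maf PnocCre replicate 5 was highest by far.

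No vessel ligand other than Angpt2 and Adm was called by limma, edgeR or DESeq2. Vegfa, the growth factor that adipocytes supply to capillaries, had 10095 ± 981 and 9239 ± 1420 (log2 fold change 0.14, limma adjusted p 0.589), and Vegfb 3625 ± 455 and 3912 ± 202 (-0.12, adjusted p 0.563). Apln, the ligand of Aplnr, had 48.7 ± 16.2 and 27.3 ± 5.99 (0.77, adjusted p 0.200). By role, the genes with the smallest p were the capillary genes Cd34 (0.60) and S1pr1 (0.50), the arterial genes Gja4 (0.60) and Efnb2 (0.48), the venous and activation genes Vcam1 (0.65) and Ackr1 (0.48), the factors Klf2 (0.51) and Elk3 (0.39), and the lymphatic Mmrn1 (0.95). The smallest of their limma adjusted p-values was 0.190, for Gja4.

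The 3 libraries that were highest in the members were also highest in 20 capillary genes outside the list, whose median deviation was 0.72, 0.55, 0.07, -0.25 and -0.26 (log2) in PnocCre replicates 1 to 5 and 0.47, -0.25, -0.37, -0.17 and -0.35 in Wildtype replicates 1 to 5. Mural cell markers, of the pericytes and smooth muscle around vessels, had summed levels of 18135 to 21974 in PnocCre and 15615 to 23353 in Wildtype. The same 3 libraries were the highest in these sums: Wildtype replicate 1 (23353), PnocCre replicate 1 (21974) and PnocCre replicate 2 (21061). Fibroblast markers were higher in PnocCre for 12 of 12 genes (14573 to 22308 against 8405 to 15338, median log2 fold change 0.74), and brown adipocyte markers lower for 10 of 10 (364232 to 465569 against 435506 to 526166). White adipocyte markers were higher for 6 of 6 (3819 to 9952 against 2292 to 7104, median log2 fold change 1.26) and macrophage markers for 10 of 11 (0.39). The part of these cell types in the genotype values was not tested.

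**Figure D4:**
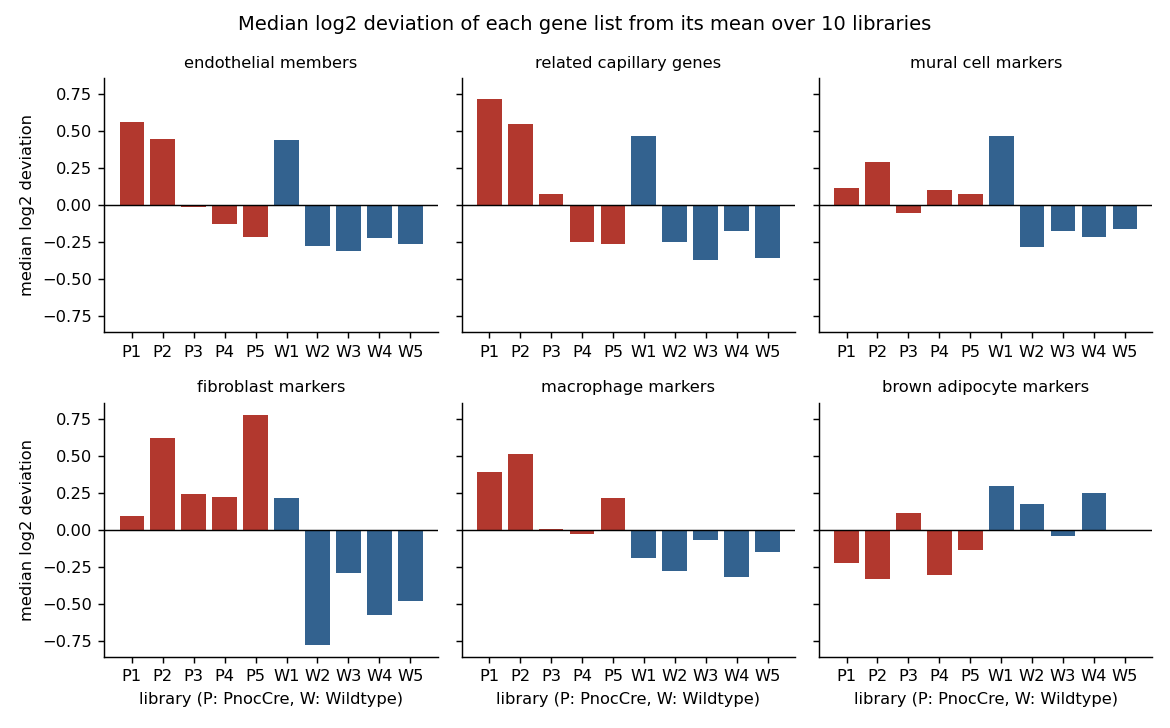
Median log2 deviation of each gene list from its mean over the 10 libraries (y axis), by library (x axis; P1 to P5 are PnocCre, in red, and W1 to W5 Wildtype, in blue). The 32 endothelial members and the 20 capillary genes outside the list are both highest in P1, P2 and W1. Mural markers are highest in the same libraries, with W1 first and P4 (0.10) close to P1 (0.11). Fibroblast and brown adipocyte markers have other orders.

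Expressed relative to the capillary genes of the same library, 0 of 33 members had groups that did not overlap, against 0.993% of all genes tested. Plvap stood at -1.92 ± 0.29 in PnocCre and -2.34 ± 0.08 in Wildtype on this log2 scale, and Sox18 at -0.76 ± 0.28 and -0.34 ± 0.34 (SD, n = 5 each). The capillary genes were themselves higher in PnocCre for 18 of 20, with a median log2 fold change of 0.26. A level or fit relative to them also takes out any genotype difference that the members share with them. With the mean log2 level of the capillary genes as a covariate, a fit chosen after the data were seen, the median member stood at 0.027 and 19 of 32 were above 0. In that fit 4 members had an unadjusted p under 0.05 with limma (8.78% of all genes higher and 10.1% lower): Plvap (0.48) and Robo4 (0.17) above 0, and Emcn (-0.33) and Sox18 (-0.46) below, with 0 called (1.42% of all genes).

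Single libraries moved these counts. Wildtype replicate 1 was the highest Wildtype library for 29 of the 32 members, against 29.4% of all genes. Leaving it out therefore favours the members over all genes, and the shares without it are a description. Without Wildtype replicate 1 the member median was 0.40 and 14 members had an unadjusted p under 0.05 with limma (10% of all genes higher and 8.29% lower), with 0 called. Then 4 members had all 5 PnocCre libraries above all 4 remaining Wildtype libraries, where 3.96% of all genes did and 3.99% were lower: Plvap (log2 fold change 0.88, limma adjusted p 0.126), Aplnr (1.38, 0.151), Robo4 (0.51, 0.164) and Mmrn2 (0.40, 0.209). Without PnocCre replicate 1 the median was 0.13 with 2 members at an unadjusted p under 0.05 (7.79% of all genes higher and 6.07% lower), and without PnocCre replicate 2 it was 0.19 with 1 (6.89% and 5.46%). There were 10 such members without PnocCre replicate 4 (10.1% of all genes higher and 11% lower), 8 without PnocCre replicate 5 (9.65% and 10.7%) and 2 without PnocCre replicate 3 (8.76% and 8.16%). Leaving out Wildtype replicate 2 gave 1 (7.11% and 6.41%), replicate 3 gave 3 (7.91% and 6.35%), replicate 4 gave 1 (6.84% and 5.55%) and replicate 5 gave 1 (7.27% and 6.18%). With the skeletal muscle marker mean as a covariate the median was 0.60, 32 of 32 members were above 0 and 18 had an unadjusted p under 0.05 (9.86% of all genes higher and 11.3% lower), with 0 called; muscle marker level and genotype are linked in these libraries.

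**Figure D5:**
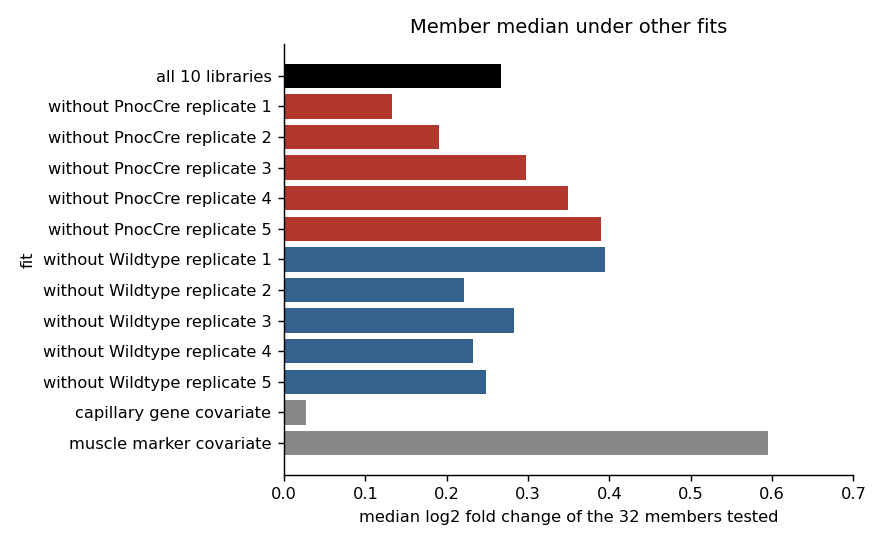
Median log2 fold change of the 32 members tested (x axis), PnocCre minus Wildtype, in the fit of all 10 libraries, with each library left out, and with the capillary gene or skeletal muscle marker mean as a covariate (y axis). Bars run from 0.027 with the capillary covariate to 0.60 with the muscle covariate, and from 0.13 to 0.40 with 1 library left out.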

How the data were processed

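PolyA RNA of interscapular brown adipose tissue was sequenced in 10 libraries, 5 PnocCre and 5 Wildtype, per the labels. The submitters' processing notes name HISAT2 2.0.5, DESeq2 without a version, featureCounts 1.5.0-p3 and the build GRCm39; the strand setting of the counting is not given in the sources used here. The deposited values are a signal: gene counts that the authors divided by 1 size factor per library (0.858 to 1.21). Whole reads were recovered from them, 100% of values at a tolerance of 0.01 reads, and gave 21304238 to 29171787 reads per library. The deposited log2 fold changes, p-values and adjusted p-values are the authors' own, and gene length is another deposited column, used for levels per kb and in no test.

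The 15301 genes averaging 10 or more normalised counts were tested with limma 3.58.1 (trend, robust, R 4.3.3) on log2(value + 1), PnocCre minus Wildtype, 2-sided, with Benjamini-Hochberg adjustment over all of them and a threshold of 0.05; this scale understates changes of low genes. Intervals are at 95% and unadjusted. edgeR 4.0.16 (quasi-likelihood) and DESeq2 1.42.0 on the recovered reads were alternatives, with TMM rescaling, pseudocounts of 0.5 and 8, no filter or one of 50, library quality weights, a muscle marker covariate and each library left out. The capillary gene covariate was added after the data were seen. The tests were run on simulated counts first. Those counts were drawn for each gene on its own, so they do not cover genes that move together, as the members did. Replicates were numbered in accession order within each group.

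The members and all gene lists were chosen with earlier results of these data known. The rule for names took 15 members whatever their p, the 4 members with the smallest p per direction (only 2 were lower), and of the related vessel genes the 2 with the smallest p per role and any that a tool called; Vegfa, Vegfb, Apln and Ccl21a were named beyond it, after their values were seen. Results of some single genes were left out.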

Additional observations from a re-analysis of the deposited data

Results flagged for a closer look

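In groups of 5 libraries, a value was singled out where its gap to the nearest other library was more than 0.71 of the range of the group (Dixon's critical value). Chance finds about 1 in 20 groups. Of 66 member groups 15 were found, and in 14 of these Wildtype replicate 1 was the high library. Since the members moved together across libraries, these are not 14 separate events.

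Among receptors and surface proteins, Wildtype replicate 1 had 5057 normalised counts of Pecam1 (2680.2 to 3291 in the other Wildtype libraries), 4724 of Flt1, 1542 of Tek, 3171 of Tie1, 5121 of Eng, 1279 of Emcn, 314 of Plvap, 1359 of Robo4 and 4156 of Podxl. The peptide receptors Aplnr, Ramp2 and Calcrl stood at 638, 804 and 204 there, the ETS factor Fli1 at 576 (298 to 344 in the others) and the matrix protein Mmrn2 at 1125. The remaining case was Cldn5 in PnocCre replicate 1, at 6041 against 1569 to 2664 in the other PnocCre libraries.

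Of 32 groups of summed lists, 7 were found. Wildtype replicate 1 was high in the capillary genes (40459, against 25595 to 27700 in the other Wildtype libraries), the arterial and Notch genes (6881), the vessel transcription factors (8984) and the mural cell markers (23353). PnocCre replicate 2 was high in lymphocyte markers (4938), Wildtype replicate 3 in white adipocyte markers (7104, against 2292 to 3388) and Wildtype replicate 5 in mesothelial markers (148, against 72.1 to 93.0).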

How the results depend on the processing

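Over the whole table limma called 0 genes, against 575 with DESeq2, 53 with library quality weights and 218 with the capillary gene covariate; leaving out 1 library gave 0 to 1 (1 without PnocCre replicate 3). Members called were 0 in every fit run. Members at an unadjusted p under 0.05 numbered 5, and 10 with DESeq2, 8 with library quality weights, 18 with the muscle marker covariate, and 1 to 14 with 1 library left out (each given in the report beside its share of all genes). Members above 0 were 30, and 19 with the capillary gene covariate and 23 to 32 with 1 library left out. Members whose groups do not overlap were 0 to 4 and the member median 0.13 to 0.40 with 1 library left out. DESeq2 called 3 related vessel genes, with log2 fold changes of 0.88 for Angpt2, 1.11 for Adm and 1.08 for Maf, where limma called 0. The muscle marker covariate moved the median of all 63 related vessel genes tested to 0.64. Changes of direction, none of them in a called value, numbered 17 over 29 named genes. With the capillary gene covariate Flt1 stood at -0.15, Kdr at -0.029, Nos3 at -0.053 and Pecam1 at -0.13, with library quality weights Nos3 at -0.0019, and with the muscle marker covariate Sox18 at 0.57 and Vwf at 0.27. With 1 library left out Flt1 ran from -0.053 to 0.23, Nos3 from -0.026 to 0.17, Notch1 from -0.054 to 0.090, Sox18 from -0.29 to 0.076 and Vwf from -0.17 to 0.13. The cause of these moves was not tested. No paired analysis was possible because the labels give no replicate number that the genotypes share, and numbers given in accession order pair no samples. With 5 libraries per genotype, an uncalled member is not shown to be the same in both. Prox1, with at most 19.97 normalised counts, is the least precisely counted of them.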

Other observations

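Each library carries a number in its label whose meaning is not given in the sources used here. The 3 libraries with the highest median member deviation carry 7639 (PnocCre replicate 1, 0.56 on the log2 scale), 7536 (PnocCre replicate 2, 0.45) and 7538 (Wildtype replicate 1, 0.44). Those with nearby numbers of both genotypes are 7221 (PnocCre replicate 3, -0.01) with 7224 and 7223 (Wildtype replicates 2 and 3, -0.27 and -0.31), and 7130 (PnocCre replicate 5, -0.22) with 7131 (Wildtype replicate 4, -0.22). The libraries 7639, 8670 (PnocCre replicate 4, -0.13) and 7964 (Wildtype replicate 5, -0.26) have no near neighbour, so only 2 of the 3 high libraries have nearby numbers. This listing was made after the values were seen, and no test was run on it.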
